A study of Homo sapiens with 9 samples.

Results

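Control 786-O cells were described here from 3 of the 9 libraries of the series, all those that carried the control hairpin, and from every gene in the deposited table. 786-O is an established human cell line that came from a clear cell carcinoma of the kidney and is without functional VHL. The labels gave its cell type as renal cell adenocarcinoma. The 9 libraries fell into 3 groups of 3, in which 786-O cells carried a lentiviral pLKO.1 short hairpin RNA against ARNT (shARNT), against BMAL1 (shBMAL1) or without a target (shControl). Cells of each group had been selected with puromycin at 2.5 µg/mL for 1 week and kept at 1.25 µg/mL, so the control cells were infected and selected too and were not parental cells. The control genotype was labelled WT, although the line lacks VHL function. The labels and the study's methods called the libraries biological replicates and the study described them as distinct samples. Whether they came from separate cultures was not given in the sources used here, so the spread between them may be technical. The study stated that its lines had been neither authenticated independently nor tested for mycoplasma.

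In normal cells the VHL protein marks the alpha subunits of the hypoxia inducible factors (HIF) for destruction once prolyl hydroxylases have modified them in the presence of oxygen. Without VHL the alpha subunits persist, pair with ARNT and raise genes of glucose uptake, glycolysis, vessel growth and pH control. Clear cell carcinoma is thought to arise from the proximal tubule, the nephron segment that recovers most filtered solutes, and PAX8 is a lineage factor that renal tumours tend to keep.

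The control libraries held 34426729, 35444735 and 34816292 reads in replicates 1, 2 and 3, and between 20085 and 20218 genes had a read in each. Levels of single genes over libraries are given as TPM or as CPM, the reads of a gene per 1000000 reads of its library. Lists by CPM and shares of reads say where the reads of a library went. Transcript levels of different genes are compared only as TPM (transcripts scaled in the same way), computed here as reads per base of exonic length and scaled to sum to 1000000. A gene was called expressed at 1 TPM or more in each of the 3 libraries, low below 10 TPM, middle from 10 TPM and high from 100 TPM by its mean. A gene with 0 reads in all 3 libraries was called silent, and 0 reads allow up to 3 reads per library, or 0.0846 to 0.0871 CPM, for counting error only. The order of a pair of genes was called held where their ranges over the 3 libraries did not overlap. No test was run, because no groups were compared. An exact permutation test of 3 values against 3 cannot go below p = 0.1.

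The markers given for the line were all expressed. EPAS1, which encodes HIF2α, stood at 184, 162 and 155 TPM in replicates 1, 2 and 3 (167 ± 14.9 TPM, mean ± SD, n = 3 here and below). In CPM, EPAS1 stood at 340, 305 and 306. TPM has a fixed sum that includes the mitochondrial genes, so a small TPM difference between libraries need not be a change of the gene. PAX8 had 162, 141 and 144 TPM, VIM, the intermediate filament of mesenchymal cells, had 2124, 2072 and 2026 TPM, and VEGFA, the main vessel growth factor among HIF targets, had 85.5, 77.9 and 78.2 TPM. Among 19073 nuclear protein-coding genes with a length, EPAS1 ranked 847, PAX8 988, VIM 18 and VEGFA 1956 by mean TPM. On GRCh37 the annotated genes lie at chr2:46520806-46613836 on the plus strand for EPAS1, chr2:113973574-114036498 on the minus strand for PAX8, chr10:17270240-17279592 on the plus strand for VIM and chr6:43737921-43754224 on the plus strand for VEGFA. A row for an antisense gene at the VIM locus, VIM-AS1, held 50597, 47909 and 57218 reads, and since it is not given in the sources used here whether counting used the strand, these reads and those of VIM cannot be told apart with certainty.

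Markers of other cell types were mostly absent, where 60.1% of all nuclear protein-coding genes were expressed. Of 10 endothelial markers, only ESAM was expressed, at 3.17 ± 0.377 TPM, and CDH5, ERG, EMCN and PLVAP were silent. None of 10 leukocyte markers was expressed, PTPRC, CD3E, LYZ, MS4A1 and TYROBP were silent, and the summed reads of the list ran from 19 to 48 per library. Of 10 fibroblast and pericyte markers, ACTA2, LUM and COL1A1 were expressed in the low tier and DCN, COL1A2 and COL3A1 were silent. The summed level ran from 3.51 to 4.15 TPM for the endothelial list, from 1.09 to 2.25 TPM for the leukocyte list and from 13.4 to 14.5 TPM for the fibroblast and pericyte list. PECAM1 had no length here and held 2, 5 and 8 reads.

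Across the genome, 11462 of 19073 nuclear protein-coding genes were expressed (60.1%), 3840 had no read in any control library and 3771 had reads but fell short of the threshold. Of the expressed genes 3426 were low, 6459 middle and 1577 high, and 54 stood at 1000 TPM or more. The median of the expressed genes was 21.6 TPM. Of 4598 long non-coding RNA genes with a length, 868 were expressed (18.9%). The plot of ranked levels runs from GAPDH, the highest of these genes, down through the threshold, with CUBN and CDH1 under it. TPM depends on the length used. With the longest transcript in place of all exons, 33 of 215 listed genes at 1 TPM or more rose by over 1.5 times and none fell by as much, among them PKM to 4548 TPM, LDHA to 3644 TPM, NDRG1 to 1025 TPM and PFKP to 858 TPM. Others that rose as much included KRT8, CLU, KRT7, WT1, TFAP2A, SLC3A1, PAX6, ENO3 and SDHB, and CDH2, NRP2 and ERBB2, which came to 213, 223 and 59.8 TPM.

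**Figure D1:**
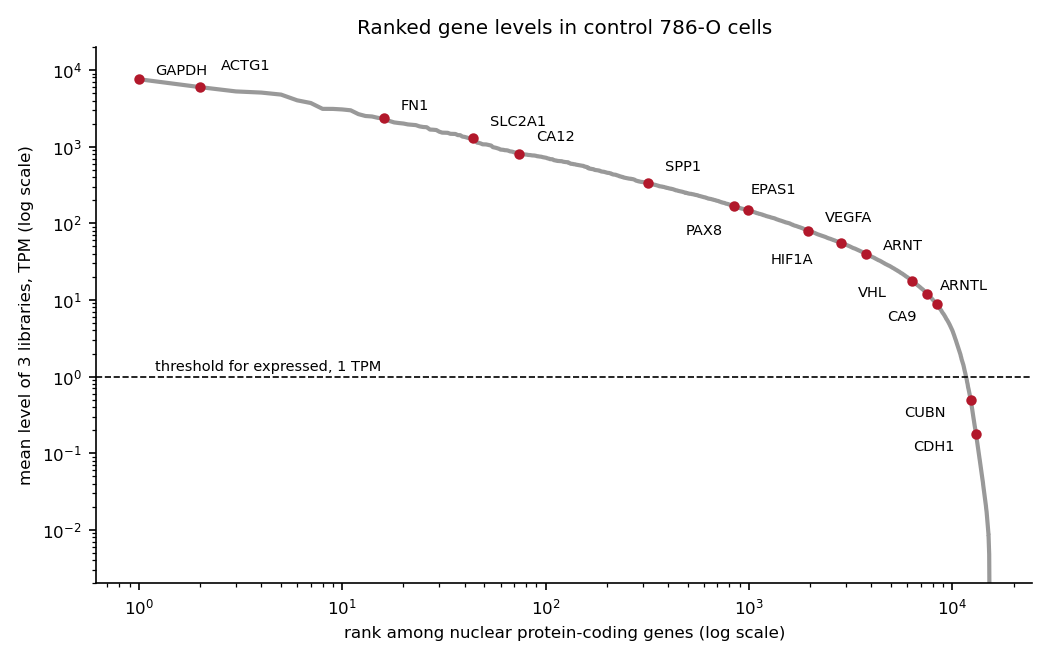
Mean TPM of the 3 control libraries (y axis, log scale) against rank among 19073 nuclear protein-coding genes (x axis, log scale), with the line through every gene that had a read and red points for named genes. EPAS1 and PAX8 lie within the first 1000 ranks at 167 and 149 TPM, VHL lies at 17.8 TPM, and CUBN and CDH1 lie under the dashed threshold of 1 TPM.

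Reads were spread over many genes. The 10 genes with the most reads took 7.77% ± 0.414 of a library, the top 100 took 21.9% ± 0.634 and the top 1000 took 53.8% ± 0.404. It took 816 genes to reach 50% of the reads and 5418 to reach 90%. Genes encoded in mitochondrial DNA took 5.46%, 6.04% and 7.14% in replicates 1, 2 and 3, highest in replicate 3. The 86 genes of ribosomal proteins took 2.32% ± 0.0517, less than the 21 HIF targets of glucose uptake and glycolysis, which took 2.51% ± 0.0788, with no overlap of the ranges. How reads that match several places were handled was not given in the sources used here, which bears on ribosomal protein genes because they have many near-identical copies.

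The 20 genes with the most reads were 8 mitochondrial genes, FN1, and genes of actin, tubulin, glycolysis and translation. Mitochondrial COX1, a subunit of cytochrome oxidase, came first at 12334, 13537 and 15182 CPM, and COX3, ND4, COX2, RNR2, ATP6, CYTB and ND5 were also among the first 20. FN1, which encodes the matrix protein fibronectin, was the nuclear gene with the most reads at 10279, 11294 and 9986 CPM. The remaining nuclear genes of the first 20 were the actins ACTG1 and ACTB, the actin crosslinker FLNA, the tubulins TUBB and TUBA1B, the glycolytic genes PKM, GAPDH, ENO1 and LDHA, and the translation factors EEF2 and EEF1A1. These ranged from 2798 ± 163 CPM for EEF1A1 to 6304 ± 303 CPM for ACTG1.

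Per base of length the picture shifted to short transcripts. Of the 20 genes with the highest TPM, 13 were mitochondrial, led by COX3 at 48783 ± 2169 TPM, and 13 genes were in both lists. The other mitochondrial genes of this list were COX2, COX1, ND4, ATP6, ND4L, RNR2, CYTB, ATP8, ND2, ND5, ND1 and ND3. The nuclear genes among them were GAPDH, ACTG1, ACTB, TMSB10, LGALS1, TUBA1B and TUBB. TMSB10, a small actin-binding peptide, had 5084 ± 740.05 TPM, and LGALS1, a secreted galactose-binding lectin, had 4784 ± 423 TPM. GAPDH was the first nuclear gene at 8284, 7809 and 6694 TPM, highest in replicate 1 and lowest in replicate 3. Its CPM ran the same way at 5026, 4819 and 4331.

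Of 31 transcription factors of kidney development and nephron segments, 16 were expressed, 8 had reads under the threshold and 7 were silent, a share of 51.6% against 60.1% of all nuclear protein-coding genes. PAX8 led the list at 162, 141 and 144 TPM. SALL1, a factor of nephron progenitors, had 55.7 ± 4.06 TPM, MAF had 44.6 ± 0.0552 TPM, IRX3 had 33.6 ± 2.81 TPM and IRX5 had 16.8 ± 1.11 TPM. PAX2, the paralogue of PAX8 that acts early in kidney development, had 10.4, 10.6 and 9.62 TPM, and PAX8 exceeded it by 14.6 ± 1.17 times. HNF4G had 12.7 ± 1.59 TPM, whereas HNF4A, a main driver of the mature proximal tubule programme, had 0, 0 and 1 reads. LHX1, WT1, HOXD11, HOXA11, TFAP2A, GATA3 and POU3F3 were among those in the low tier, between 1.12 and 9.81 TPM. EMX2, SIX2, EYA1, IRX1, IRX2 and FOXI1 were among the silent members, so of the 4 IRX genes on the list IRX3 and IRX5 were expressed and IRX1 and IRX2 silent.

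Genes of the mature proximal tubule were split. Of 28, 11 were expressed (39.3%, against 60.1% of all nuclear protein-coding genes), 7 had reads under the threshold and 10 were silent, and the median over the list was 0.424 TPM against 5.19 TPM over all nuclear protein-coding genes. The expressed members included enzymes and adhesion proteins of the brush border and cell surface. GGT1, which breaks down glutathione outside the cell, had 186, 207 and 183 TPM and has near-identical copies, so its level is uncertain. ANPEP, an aminopeptidase, had 128, 125 and 118 TPM and CDH6, a cadherin of the developing tubule, had 126, 127 and 114 TPM. MIOX, the kidney enzyme that opens the inositol ring, had 85.7, 77.7 and 84.5 TPM. DPP4 had 41.0 ± 2.50 TPM, the bicarbonate transporter SLC4A4 had 31.7 ± 4.59 TPM, MME had 14.4 ± 1.49 TPM and CDH16 had 12.6 ± 0.896 TPM. SLC13A3, SLC3A1 and CYP27B1 were low, between 3.10 and 9.08 TPM.

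The remaining members were under the threshold or silent, and they included transporters and enzymes of glucose synthesis, although the transporters SLC4A4, SLC13A3 and SLC3A1 were expressed. LRP2 and CUBN, the receptors that recover filtered proteins, had 0, 2 and 0 reads and 56, 79 and 42 reads. The phosphate transporter SLC34A1 had 34, 23 and 27 reads, the water channel AQP1 had 16, 9 and 25 reads and the glucose transporter SLC5A2 had 9, 7 and 9 reads. The organic anion and urate transporters SLC22A6, SLC22A8 and SLC22A12 and the amino acid transporters SLC6A19 and SLC7A9 were silent. So were FBP1, PCK1 and G6PC, which act in gluconeogenesis, and the lactate transporter SLC5A12. GATM and SLC22A2 also fell under the threshold, with 0.357 and 0.0673 TPM.

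Of 9 genes with a length on the list of tubular injury and progenitor-like genes, 7 were expressed (77.8%, against 60.1% of all nuclear protein-coding genes) and 4 were high. SPP1, the secreted osteopontin, had 348, 339.8 and 312 TPM, KRT19 had 311, 332 and 315 TPM, VCAM1 had 115 ± 5.70 TPM and HAVCR1, the injury marker KIM-1, had 112 ± 11.8 TPM. CD24 had no length and stood at 1525 ± 71.3 CPM. CLU, SOX9 and KRT7 followed at 21.3, 5.66 and 1.57 TPM, while LCN2 and PROM1 stayed under the threshold. Of 23 genes of other nephron segments, 4 were expressed (17.4%, against 60.1% of all nuclear protein-coding genes). The 11 silent members included UMOD of the thick limb, AQP2 of the collecting duct and NPHS1 of podocytes. Of all 19073 nuclear protein-coding genes 3840 were silent. SYNPO, an actin-associated protein known from podocytes, was the exception at 444, 423 and 406 TPM, and SCNN1A, PODXL and ATP6V0D2 were low.

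Of 12 mesenchymal genes 10 were expressed (83.3%), 5 of them high, 3 middle and 2 low, and of 14 epithelial genes 6 were expressed (42.9%), against 60.1% of all nuclear protein-coding genes. FN1 had 2358, 2547 and 2148 TPM, TGFBI, a matrix protein, had 1250.2 ± 83.5 TPM and SPARC had 477 ± 11.2 TPM. CDH2 (N-cadherin) had 142, 136 and 128 TPM, whereas CDH1 (E-cadherin) held 15, 4 and 10 reads, or 0.177 TPM. The epithelial keratins KRT8 and KRT18 had 244 ± 10.1 and 169 ± 7.604 TPM, CLDN4 had 67.8 ± 4.46 TPM, TJP1 had 61.4 ± 3.87 TPM and EPCAM had 14.3 ± 0.353 TPM. ESRP1, GRHL2 and OVOL1, regulators of the epithelial state, were silent, and ESRP2 had 1.77 ± 0.514 TPM. Of the factors that repress CDH1, SNAI1, ZEB1, SNAI2 and ZEB2 were expressed at 19.3, 17.4, 17.03 and 6.75 TPM, or 14.2, 17.7, 14.5 and 13.6 TPM with the longest transcript as length, and TWIST1 and TWIST2 were silent. S100A4 was low, with 30, 28 and 18 reads.

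**Figure D2:**
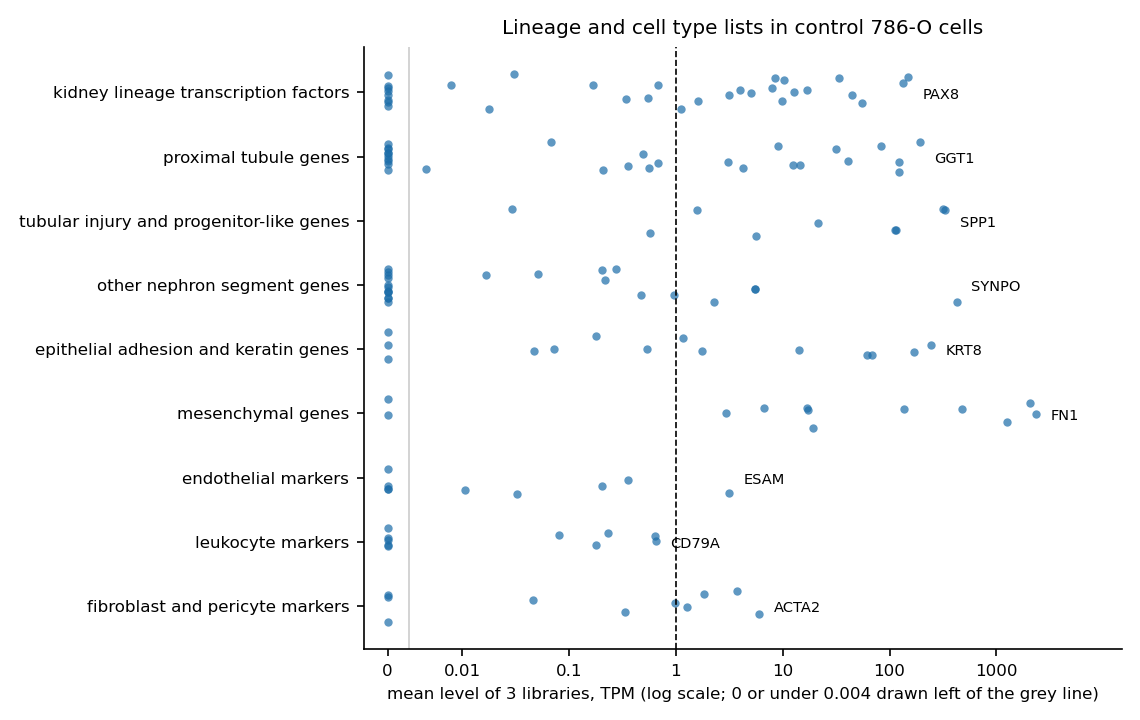
Mean TPM of the 3 control libraries (x axis, log scale, with 0 drawn left of the grey line) for the members of 9 gene lists (rows) that had a length, which CD24 and PECAM1 did not, 1 point per gene and the highest member named. Points are offset vertically so that they can be told apart. Kidney factors reach 149 TPM, mesenchymal genes reach 2351 TPM, and 1 endothelial marker, no leukocyte marker and 3 fibroblast or pericyte markers were expressed.

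Among the HIF alpha subunits, EPAS1 exceeded HIF1A. HIF1A had 57.4, 57.6 and 51.0 TPM, and the ratio of EPAS1 to HIF1A was 3.204, 2.82 and 3.04 in the 3 libraries (3.02 ± 0.194), with no overlap of the ranges. HIF3A was silent. Both alpha subunits stood above their partner ARNT, which had 38.7, 43.4 and 37.8 TPM, EPAS1 by 4.20 ± 0.513 times and HIF1A by 1.39 ± 0.0845 times. These are transcript levels, and HIF is mainly controlled as protein. Whether the HIF1A transcript is intact or gives protein can not be read from these counts.

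The 4 genes of the ARNT and BMAL group were all expressed in the middle tier. ARNTL2 (BMAL2) came second at 24.9, 22.4 and 23.9 TPM, ARNTL (BMAL1), the partner of CLOCK in the circadian clock, had 12.4, 12.6 and 11.2 TPM and ARNT2 had 12.4, 11.1 and 10.7 TPM. The order ARNT, ARNTL2, ARNTL held, with ARNTL2 above ARNTL by 1.98 ± 0.183 times, and ARNTL and ARNT2 overlapped. With the longest transcript as length, ARNTL2 exceeded ARNTL by only 1.12 ± 0.103 times and ARNTL exceeded ARNT2 by 1.64 ± 0.107 times, with no overlap. ARNT exceeded ARNTL by 3.32 ± 0.168 times. Of 12 other proteins of the same fold (bHLH-PAS), 7 were expressed (58.3%, against 60.1% of all nuclear protein-coding genes). AHR, the receptor for aryl hydrocarbons, led at 37.9 ± 2.12 TPM, followed by CLOCK at 17.9 ± 1.76 TPM and the period gene PER3 at 15.2 ± 1.31 TPM. PER1, PER2, the CLOCK paralogue NPAS2 and SIM1 were low, at 7.49, 6.49, 5.19 and 2.17 TPM, and CLOCK exceeded NPAS2 by 3.46 ± 0.395 times. SIM2 and NPAS4 were silent.

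Genes that restrain HIF were present. EGLN3, a prolyl hydroxylase that HIF itself raises, had 64.4, 60.3 and 58.1 TPM and EGLN1, the main oxygen sensor, had 10.1, 9.38 and 9.43 TPM, a ratio of 6.32 ± 0.137, or 13.2 ± 0.286 with the longest transcript as length. HIF1AN, which blocks the HIF activation domain, had 8.63 ± 0.102 TPM, P4HTM had 12.3 ± 0.571 TPM and VHL itself had 16.8, 19.9 and 16.7 TPM. These counts do not show whether the VHL transcript is intact. EGLN2 held 0, 2 and 1 reads, but the row that joins it to its neighbour, RAB4B-EGLN2, held 2118, 2192 and 2130 reads, while RAB4B itself held 0 in each library. EGLN2 can therefore not be called off from its own row.

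Of 73 HIF targets, 69 were expressed, or 94.5%, where 60.1% of nuclear protein-coding genes were. In the high tier were 32 of the 73 (43.8%) against 8.27% of nuclear protein-coding genes, and the median over the 73 was 75.2 TPM. These targets are well known genes and were not sampled at random. All 21 targets of glucose uptake and glycolysis were expressed, 14 of them high, with a median of 242 TPM. GAPDH was followed by ENO1 at 2798, 2705 and 2481 TPM, ALDOA at 2568, 2667 and 2311 TPM, PKM at 2208, 2258 and 2055 TPM and LDHA at 1826, 1905 and 1791 TPM. With the longest transcript as length the order after GAPDH turned to PKM, ENO1, LDHA and ALDOA, at 4548, 4011, 3644 and 2798 TPM. The glucose transporter SLC2A1 (GLUT1) had 1358, 1333 and 1159 TPM, TPI1 had 767 ± 61.1 TPM, PFKP had 489.7 ± 21.4 TPM and the lactate exporter SLC16A3 had 317 ± 4.75 TPM. At the lower end stood HK2 at 25.8 ± 2.74 TPM, PDK1, which closes the entry of pyruvate to the mitochondrion, at 14.8 ± 1.80 TPM, PFKFB4 at 14.2 ± 0.474 TPM and ALDOC at 11.5 ± 1.89 TPM.

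The pH and secreted targets were uneven. The surface carbonic anhydrase CA12 had 873, 835 and 726 TPM, while its relative CA9, the best known HIF marker of this class, had 10.4, 8.84 and 7.12 TPM, so CA12 exceeded CA9 by 93.4 ± 9.05 times. Among secreted factors and receptors 13 of 16 were expressed (81.2%, against 60.1% of nuclear protein-coding genes). IGFBP3, which binds insulin-like growth factors, had 354, 324 and 286 TPM, the EGF receptor ligand TGFA had 264, 254 and 246 TPM, ANGPTL4 had 132 ± 9.95 TPM and ADM had 102 ± 4.98 TPM. ACKR3 and CXCR4, both receptors of CXCL12, had 70.9 ± 3.34 and 2.63 ± 0.510 TPM, and CXCL12 held 0, 0 and 2 reads. PTHLH, STC2, EDN1, STC1 and PDGFB lay between 15.4 and 43.3 TPM, and IGFBP1 had 9.82 TPM. EPO, the kidney hormone of red cell formation, and LEP were silent.

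All 10 matrix and clotting targets were expressed, where 60.1% of nuclear protein-coding genes were. MMP14, a membrane-bound protease that cuts matrix, had 592 ± 34.3 TPM, and LOXL2, which crosslinks collagen, had 549 ± 43.2 TPM. Its paralogue LOX had 10.3 ± 0.865 TPM. The collagen hydroxylases PLOD1, PLOD2, P4HA1 and P4HA2 had 260.5, 198, 155 and 75.2 TPM. With the longest transcript as length they had 343, 360, 124 and 123 TPM, so the order of PLOD1 and PLOD2 turned. F3 and PLAUR had 83.4 and 56.9 TPM, and PLAUR had 116 TPM with the longest transcript. All 11 feedback and regulatory targets were expressed, led by BHLHE40, a repressor that also acts in the clock, at 367, 322 and 339 TPM, and the cyclin CCND1 at 216, 209.6 and 198 TPM. CITED2 had 128 ± 1.02 TPM and BHLHE41 had 33.9 ± 2.59 TPM, and the histone demethylases KDM3A, KDM4C and KDM4B had 11.9, 11.7 and 11.3 TPM, or 13.3, 19.3 and 21.5 TPM with the longest transcript. MXI1 and POU5F1 had 11.4 and 9.74 TPM, and POU5F1 has near-identical copies that make its level uncertain.

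Of 12 targets of stress, mitophagy and lipid storage, 11 were expressed (91.7%, against 60.1% of nuclear protein-coding genes). DDIT4, an inhibitor of mTOR, had 750.0, 673 and 827 TPM, NDRG1 had 463, 455 and 467 TPM and PLIN2, which coats lipid droplets, had 232, 234 and 236 TPM. ALDH1A1 had 245 ± 31.6 TPM, BNIP3L and BNIP3, receptors for mitophagy, had 46.3 ± 5.08 and 25.4 ± 0.0283 TPM, and HILPDA, which protects lipid droplets from breakdown, had 13.2 ± 1.66 TPM. ERO1A and INSIG2 had 41.1 and 28.4 TPM, FAM162A and PPFIA4 were low at 4.65 and 2.89 TPM, and ANKRD37 held 6, 14 and 19 reads.

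**Figure D3:**
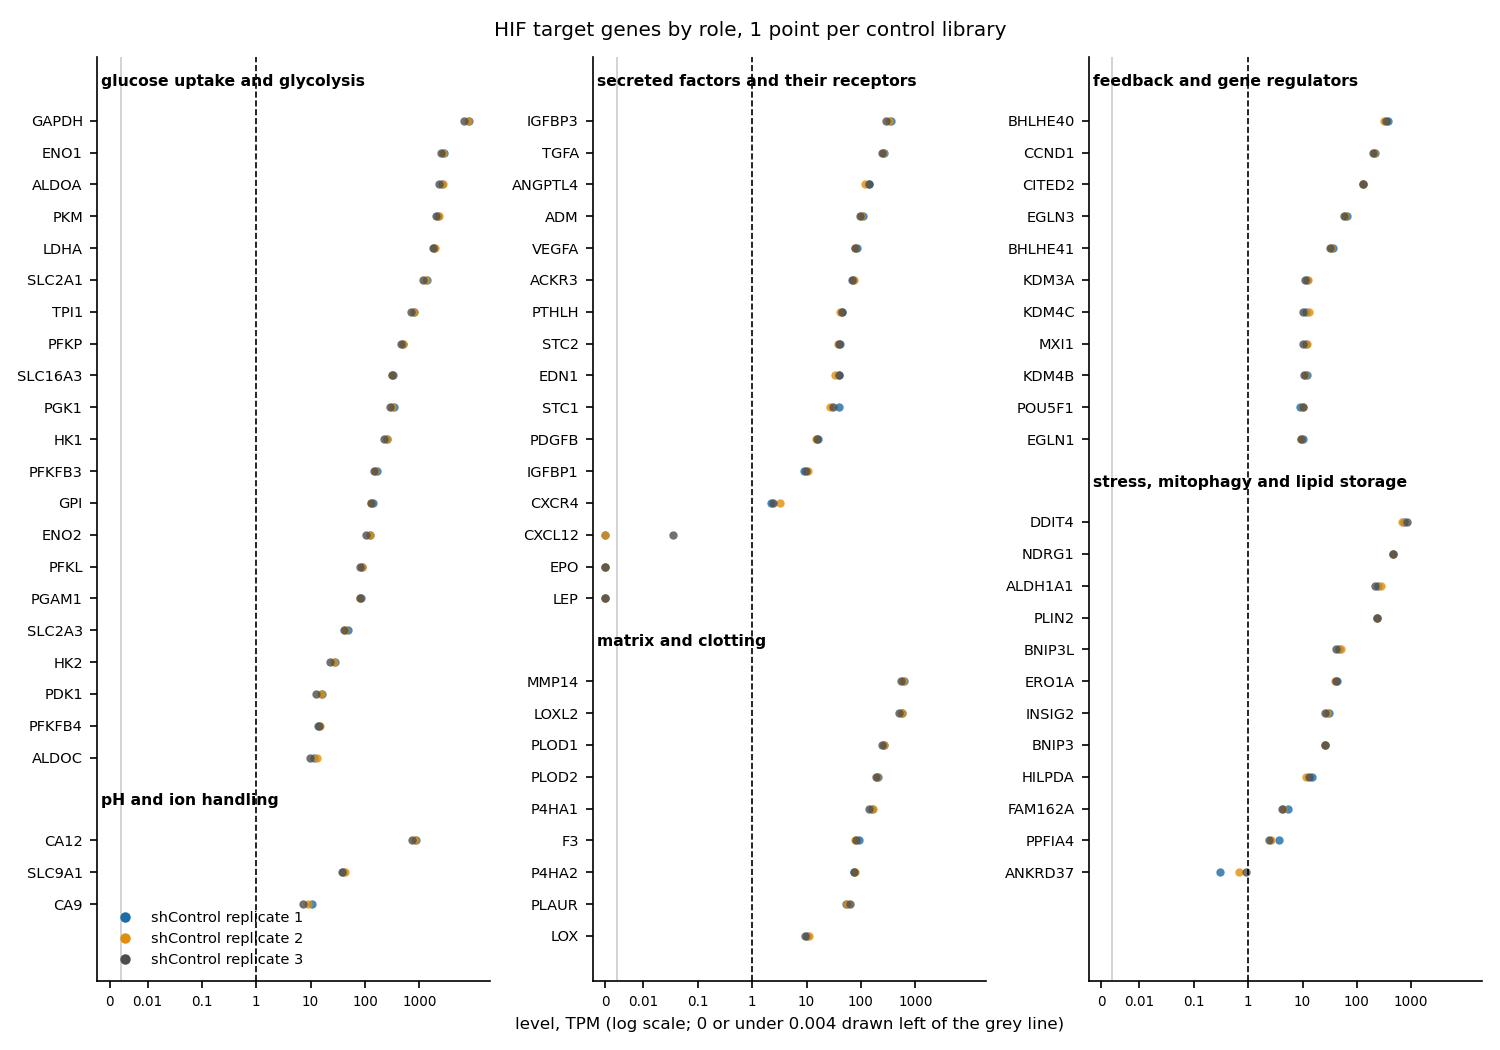
TPM in each of the 3 control libraries (x axis, log scale, with 0 drawn left of the grey line) for 72 of the 73 HIF targets (rows), grouped by role and sorted by mean, with 1 coloured point per library. The dashed line marks 1 TPM. Points of a gene lie close together for the 68 expressed genes drawn, and EPO, LEP, CXCL12 and ANKRD37 lie under the threshold.

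HIF dimers bind DNA at a short core, ACGTG or GCGTG, so the windows around gene starts were searched for these letters on both strands. CACGTG holds ACGTG on both strands. RefSeq windows of 250 bases before and 50 after the start (GRCh38.p14) were found for 15134 of the 19073 nuclear protein-coding genes and 59 of the 73 HIF targets. ACGTG was present in 31 of the 59 target windows (52.5%) and in 23.8% of all 15134 windows, or 27.3% of those of expressed genes. GCGTG was present in 55.9% of target windows, 44.6% of all windows and 51.8% of those of expressed genes. Target windows also had more G and C, with a median of 69.3% against 63.0% for all windows and 65.3% for those of expressed genes, and the part of base composition in these shares was not tested. A match describes letters and is no evidence of binding. The targets were chosen as known HIF targets, so their share of windows with ACGTG is no independent support for that. The 30 bases around the match nearest the start are shown for 1 gene of each role, that with the highest TPM among those with a match before the start, 5′ to 3′ on the gene's strand and with the matched letters in capitals.
GAPDH: ctctgcggggtcACGTGtcgcagaggagcc
CA12: gcggatctcaccCACGCctgccagcagctc
IGFBP3: cgccgttccgggGCGTGtcctgggccaccc
MMP14: ggctaaaacaacCACGTccccaaccaggaa
BHLHE40: cacagggtagaaCACGTagctccaacccac
DDIT4: ggcgcagagaagGCGTGgcctcgccgcgct

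These windows were placed on GRCh37 by an exact match of the RefSeq window. GAPDH lay at chr12:6644338-6644367 on the plus strand, 80 bases before the RefSeq start and in an intron of the longer GENCODE gene. CA12 lay at chr15:63674262-63674291 on the minus strand, 234 bases before its start and outside the annotated gene, and it reads as CACGC, the reverse complement of GCGTG. IGFBP3 lay at chr7:45960909-45960938 on the minus strand, 55 bases before its start and in an intron of a longer annotated form. MMP14 lay at chr14:23305686-23305715 on the plus strand, 96 bases before its start, and BHLHE40 at chr3:5020961-5020990 on the plus strand, 149 bases before its start, both outside the annotated gene and both reading CACGT, the reverse complement of ACGTG. DDIT4 lay at chr10:74033617-74033646 on the plus strand, 53 bases before its start and outside the annotated gene. Between 1 and 4 matches fell in each of the 6 windows.

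Gene families differed in how far 1 member stood above the rest. In 26 of the 30 families 3 or more members had a length, and in 22 of these 26 the highest member held over 50% of the summed TPM and in 10 over 75%. Among their 163 members, 101 were expressed and 24 were silent. The first and second members did not overlap in 28 families. The share of expressed members was 62.0%, close to the 60.1% of all nuclear protein-coding genes. SLC2A1 made up 86.4% ± 0.703 of the summed TPM of 14 glucose transporters, and SLC2A6, SLC2A10 and SLC2A3 followed at 51.4 ± 1.36, 49.4 ± 0.366 and 43.9 ± 3.74 TPM. The order of these 3 turned with the longest transcript as length, where SLC2A3 came first. SLC2A4, the insulin-responsive transporter, and SLC2A2, that of liver and proximal tubule, were under the threshold at 0.480 and 0.252 TPM. SLC2A14, a near-identical copy of SLC2A3, had 1.09 TPM.

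In the glycolytic families the widely expressed form came first. HK1 had 254, 249 and 222 TPM, HKDC1, a less studied hexokinase, came second at 69.8, 66.3 and 67.0 TPM and exceeded HK2 by 2.65 ± 0.259 times, while HK3 held 5, 0 and 0 reads. PFKP exceeded PFKL by 5.67 ± 0.0206 times and PFKL exceeded PFKM by 1.31 ± 0.0233 times. With the longest transcript as length, PFKP exceeded PFKL by 9.08 ± 0.0330 times and PFKL and PFKM overlapped, with their order turned at a ratio of 0.962 ± 0.0171. PFKFB3 made up 88.5% ± 0.371 of its family. ALDOA exceeded ALDOC by 220.4 ± 21 times. ENO1 exceeded ENO2 by 22.7 ± 0.804 times, and ENO3 and ENO4 were low. PKLR, the pyruvate kinase of liver and proximal tubule, held 0, 3 and 0 reads beside PKM, and PGK2, the testis form of PGK1, held 0, 2 and 0 reads. PGAM1 had 81.1 ± 1.83 TPM and PGAM4, a near-identical copy, had 29.0 ± 5.74 TPM, so their split is uncertain.

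In lactate and pyruvate handling, LDHB stood below LDHA, with no overlap of the ranges. LDHB had 1386, 1363 and 1123 TPM. The ratio of LDHA to LDHB was 1.44 ± 0.143, or 1.99 ± 0.198 with the longest transcript as length. SLC16A3 exceeded SLC16A1 by 3.92 ± 0.333 times, and SLC16A8 was silent. PDK2, not a listed HIF target, stood above PDK1 at 22.8 ± 1.58 TPM, a ratio of 1.55 ± 0.140 (2.38 ± 0.215 with the longest transcript), and PDK3 and PDK4 were low. CA2, a cytosolic carbonic anhydrase, had 286, 289 and 228 TPM, below CA12 by 3.04 ± 0.147 times, and CA1, CA5A, CA8 and CA10 were silent.

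Ligands of the VEGF family were expressed and their receptor kinases were not. VEGFB had 112, 104 and 121 TPM, above VEGFA by 1.397 ± 0.133 times, VEGFC had 49.4, 53.6 and 54.6 TPM and PGF had 1.53 ± 0.305 TPM. FIGF (VEGFD) held no reads, but the joined row PIR-FIGF held 292, 314 and 318 reads and PIR itself held 21, 26 and 24, so FIGF can not be called off. FLT1 and FLT4 were silent and KDR held 0, 2 and 0 reads, while the coreceptors NRP1 and NRP2 had 153, 154 and 145 TPM and 150.2, 149.7 and 135 TPM, with overlapping ranges. The order of NRP1 and NRP2 turned with the longest transcript as length, and they overlapped again, at a ratio of 0.978 ± 0.0263. Among EGF receptors, ERBB2 had 41.6, 37.5 and 37.3 TPM and EGFR had 34.6, 37.6 and 30.5 TPM, which overlapped on exonic length and not on that of the longest transcript, ERBB3 held 24, 3 and 16 reads and ERBB4 was silent.

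Among cyclins of the D type, CCND1 exceeded CCND3 by 5.59 ± 0.559 times, or by 2.61 ± 0.261 times with the longest transcript as length, and CCND2 held 2, 0 and 0 reads. Of 5 perilipins, PLIN3 and PLIN2 were expressed (40.0%, against 60.1% of all nuclear protein-coding genes), with PLIN3 above PLIN2 by 1.18 ± 0.0123 times on exonic length. With the length of the longest transcript in its place the order turned, at 455.0 ± 8.86 TPM for PLIN2 and 249 ± 3.38 TPM for PLIN3. PLIN5 was silent, and PLIN1 and PLIN4, of fat tissue, were under the threshold. Of 9 PAX factors only PAX8, PAX2 and PAX6 were expressed (33.3%, against 60.1% of all nuclear protein-coding genes), and PAX6 had 1.83 ± 0.1002 TPM. CDH2 exceeded CDH6 by 1.11 ± 0.0333 times, or by 1.62 ± 0.0488 times with the longest transcript as length. Metallothioneins, which bind zinc and copper, were led by MT2A at 2019, 1837 and 2159.5 TPM and MT1E at 614, 610.2 and 734 TPM, followed by MT1X and MT1F at 93.0 and 11.6 TPM, whereas MT1G and MT1M held 3 reads or fewer, and near-identical members make this split uncertain. ACTG1 stood at 6449, 6019 and 5495 TPM and ACTB at 5248, 5329 and 5215 TPM, with a ratio of 1.14 ± 0.0878, and they overlapped with the longest transcript as length. FTL and FTH1, the ferritin chains, had 3117 ± 376 and 1101 ± 21.2 TPM and both have many copies. Their ratio of 2.84 ± 0.397 became 1.70 ± 0.238 with the longest transcript as length. EEF1A2, a form restricted to few tissues, had 279, 273 and 285 TPM beside 1145, 1104 and 961 TPM for EEF1A1, a ratio of 3.84 ± 0.408 on exonic length and 6.24 ± 0.662 on that of the longest transcript.

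**Figure D4:**
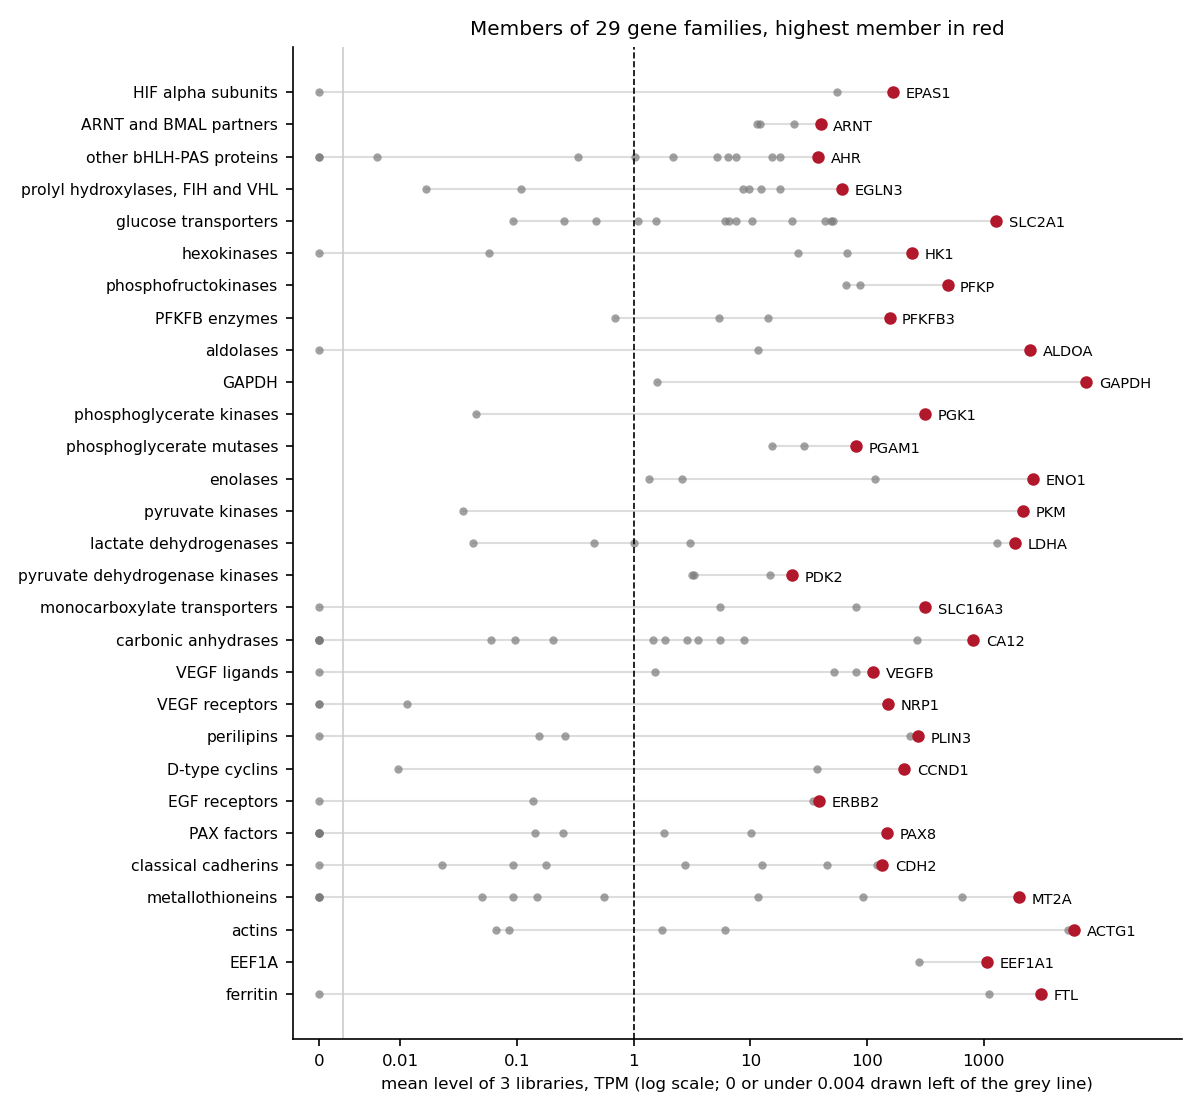
Mean TPM of the 3 control libraries (x axis, log scale, with 0 or under 0.004 TPM drawn left of the grey line) for the members of 29 of the 30 gene families (rows), with the highest member in red and named and the others in grey. Families such as the aldolases, at 2515 and 11.5 TPM for the first 2 members, are wide, and NRP1 and NRP2 at 151 and 145 TPM are close.

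All 12 tumour suppressors of renal carcinoma on the list were expressed, where 60.1% of nuclear protein-coding genes were. SDHB had 127 ± 8.47 TPM, BAP1 81.1 ± 4.16 TPM, KDM5C 71.1 ± 4.66 TPM and FH 45.2 ± 1.77 TPM. SETD2 and PBRM1, chromatin regulators of chromosome arm 3p like BAP1, had 25.6 ± 0.451 and 25.2 ± 1.87 TPM. TSC2, FLCN and TSC1 had 21.4, 17.9 and 9.03 TPM. TSC2 and FLCN had 37.5 and 35.2 TPM with the longest transcript as length, above SETD2 and PBRM1 at 31.6 and 22.4 TPM.

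In the 9p21 interval, CDKN2A and CDKN2B were at or near 0 between expressed neighbours. CDKN2A (chr9:21967751-21995300, minus strand, GRCh37), which encodes the cell cycle inhibitor p16, held 0, 0 and 1 reads, and CDKN2B beside it (chr9:22002902-22009304, minus strand) held 0. Their antisense rows CDKN2A-AS1 and CDKN2B-AS1 also held 0. MTAP (chr9:21802635-21937650, plus strand), next to CDKN2A on its other side, had 9.63, 9.20 and 9.68 TPM, KLHL9 (chr9:21329664-21335403) had 19.9 ± 2.02 TPM and MLLT3 (chr9:20341667-20622498) had 12.2 ± 0.348 TPM. DMRTA1 beyond CDKN2B (chr9:22446823-22455739) had 6.67, 7.33 and 7.03 TPM. The interferon genes IFNA1, IFNB1 and IFNE held 0 to 5 reads and ELAVL2 held 1 read. Whether DNA is missing here can not be read from RNA counts.

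The control libraries were alike but not identical. Between pairs of libraries, chi-square per degree of freedom ran from 7.18 to 12.6, so no library repeated another, and 96.3% to 97.9% of protein-coding genes at 10 CPM or more agreed within 1.25 times. The biological coefficient of variation in edgeR was 6.55%. The median coefficient of variation (CV) was 5.08% over 9232 genes at 10 CPM or more, and 51 of them exceeded 20%. For the 62 HIF targets at that level the median CV was 4.39% and none exceeded 20%, where 0.552% of the 9232 genes did. Over all genes the median CV differed by level, at 6.48% from 10 to 30 CPM and 4.00% from 100 to 300 CPM. The targets were not matched for level, so these values do not show that they vary less.

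Among the 10 rows with the largest CV, 5 belonged to genes that share reads with a joined row. NBL1 held 0, 2259 and 1613 reads while the joined row MINOS1-NBL1 held 2240, 0 and 419, and their sum was 2240, 2259 and 2032. ATP6V1G2-DDX39B held 3704, 5591 and 701 reads, DDX39B held 9363, 7440 and 11223, and their sum was 13067, 13031 and 11924. PMF1 held 767, 1061 and 501 reads beside 91.6, 0 and 477 in PMF1-BGLAP, and ANKHD1 held 2392, 1935 and 1215 beside 1940, 2702 and 3080 in ANKHD1-EIF4EBP3. The rows of each of these 4 pairs moved against each other while their sums stayed close. Of 122 rows that join neighbouring genes, 49 reached 10 CPM, and in 34 of these 49 a gene of the pair was under 1 TPM, so a low level of such a gene is uncertain.

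**Figure D5:**
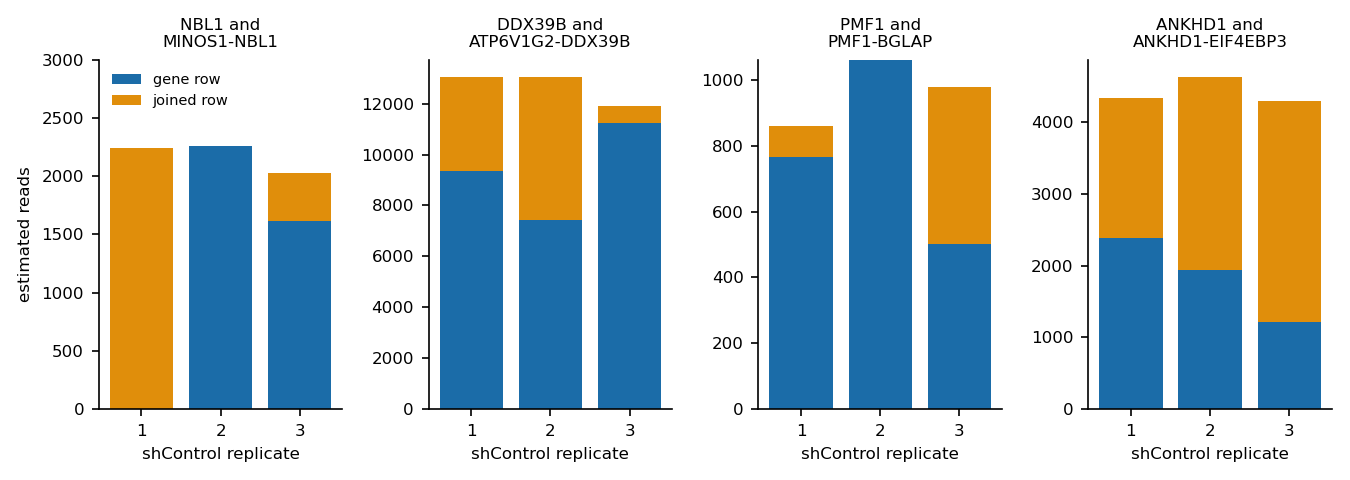
Estimated reads (y axis, from 0) in control replicates 1 to 3 (x axis) for 4 genes (blue) and the row that joins each to its neighbour (orange), stacked so that the bar height is their sum. The sum of NBL1 and MINOS1-NBL1 stays between 2032 and 2259 while the split runs from all in the joined row to all in the gene row.

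The other 5 were highest in replicate 3. Mitochondrial ND1 stood at 1066, 1138 and 2045 CPM, JUND, a subunit of the AP-1 factor, at 23.8, 21.6 and 36.8 CPM, RPS29 at 18.7, 16.8 and 30.2 CPM, UBALD2 at 11.1, 10.1 and 18.9 CPM and the non-coding RAD21-AS1 at 11.7, 9.56 and 16.5 CPM. Of the 51 genes with a CV over 20%, 7 belonged to joined rows, 5 were mitochondrial and 39 were neither, and 27 of those 39 were highest in replicate 3, which also had the highest mitochondrial share. All 15 mitochondrial genes were highest in replicate 3. The part of RNA quality or culture in this was not tested.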

How the data were processed

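RNA from 786-O cells was sequenced as paired-end reads of 100 bases from stranded mRNA libraries, 3 per group. The values were estimated counts deposited by the authors, a linear total for each gene. The study's methods give SeqMan NGen 17 for alignment to GRCh37 and ArrayStar 17 for counting. The submitters' processing notes name STAR, DESeq2 and hg38 in place of these, and which applies could not be settled. The gene annotation, strand setting and treatment of multiply matching reads are not given in the sources used here.

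Only the 3 shControl columns were used, and groups and replicate numbers came from the labels. The stand-in 0.009 was set to 0, which covered 47.1% of control values. Rows with one name were added (53 rows), leaving 38021 names, of which 28 rows hold a date in place of a symbol. Fractional values (6.19% of those above 0, with 5.41% of reads) were kept, and rounded for edgeR 4.0.16 and DESeq2 1.42.0, which gave scaling factors and a dispersion only. CPM used all reads of a library. TPM used the union of exons in GENCODE 44 lifted to GRCh37, found for 25939 names with 98.7% of reads, matched by symbol, older symbol or synonym. Promoter windows were RefSeq's, and 12082 names had no exonic length. Library totals ran from 34426729 to 35444735 reads. The median CV from counting alone was 3.96% at 10 to 30 CPM, beside a median CV of 6.48% between libraries. At 30 to 100 CPM it was 2.34% beside 4.89%. No value was tested between groups.

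Named were the 20 genes with the most CPM, the 20 with the most TPM, the 10 with the largest CV at 10 CPM or more, and members of the gene lists. The members and lists were chosen with earlier results of these data known. Some members of these lists are counted but not reported by name here. Level and dispersion steps were tested on simulated data. Alternatives were another gene length, edgeR's TMM or DESeq2's size factors, levels without mitochondrial genes, thresholds of 0.5 and 2 TPM or 1 CPM, a minimum of 10 reads, rounding, and leaving out each library.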

Additional observations from a re-analysis of the deposited data

Results flagged for a closer look

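Reads outside the named genes were found in 28 rows whose symbol had become a date. They held 0.235% of control reads on average, above the limit that a count of 0 allows, and the genes behind them were not named.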

How the results depend on the processing

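Of 107 values recomputed for 9 results under 12 alternatives, 104 stayed within 1 SD of the reported value or, for counts of genes, within 1.5 times. The 3 that moved followed from the way the alternative was built. Without mitochondrial genes, the top 100 genes took 17.96% of reads in place of 21.9%, and EPAS1 stood at 223 TPM in place of 167. With the longest transcript as length, the ratio of EPAS1 to HIF1A was 3.28 in place of 3.02. The mitochondrial share has no value once those genes are left out. Beyond these results, 9 of 39 ratios between genes moved by over 1.5 times with the longest transcript and 5 turned, as given beside them. No paired analysis was possible because the result comes from no test. Depth limits genes near 0 reads most, where 3 reads per library could be missed.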
